A study of Caenorhabditis elegans with 26 samples.

Results

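The genes described here are the dyf, osm, che, bbs, ift, xbx, mks, mksr and nphp genes of the nematode Caenorhabditis elegans, most of which build the sensory cilium or carry cargo along it. They were chosen by name alone, from gene names joined by WormBase identifier, with che-14 left out. The rule found 53 of the 20182 genes in the deposited table. RNA came from whole worms of the wild-type strain N2, in 2 time courses that both began with eggs hatched overnight and larvae then put on plates. Course B grew on peptone-rich 2% NGM agar with the bacterium NA22 and gave 10 libraries, one every 2 h, titled 18 to 36 h. Course A grew on 2% NGM agar with the bacterium OP50 and gave 16 libraries, one every 1 h, titled 21 to 36 h. Per the labels, course A grew slowly and was harvested 1 h later than its titles say, and title times are used below. Libraries were made from total RNA depleted of ribosomal RNA. No time was sampled more than once, so p-values reflect how far single libraries scatter about the fitted line or cycle, not how far separate cultures differ. Effects of the bacterium and of the plate medium cannot be told apart, because both differ between the courses.

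In C. elegans the cells with cilia are sensory neurons, whose dendrites end in a cilium that meets the outside world or senses touch and body position. Intraflagellar transport (IFT) builds and maintains the cilium: kinesin-2 motors carry IFT-B trains outward, and dynein-2 with IFT-A brings them back. The BBSome links membrane cargo to these trains, the transition zone at the cilium base acts as a gate, and the RFX factor DAF-19 switches on many of these genes through a promoter motif called the X-box. Worms that lack such genes fail to take up dye (dyf), to avoid high osmolarity (osm) or to move toward attractants (che), which gave the genes their names.

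The 10 libraries of course B held 22587893 to 36083371 counts each, and the 16 of course A held 16241561 to 29911888. Levels are given as CPM, the count divided by a TMM-scaled library total and multiplied by 1e+06, with TMM factors computed over all 26 libraries. A count of 0 allows a level of up to 3 counts, equal to 0.0942 to 0.152 CPM in the libraries of course B and 0.102 to 0.184 CPM in those of course A. These limits cover counting error only, since the reads carry no molecular identifiers. Together the 53 genes held 0.0299 to 0.0729% of a library's counts in course B and 0.0311 to 0.0573% in course A.

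The cilium genes differed widely in level. Per kilobase of exon, the highest were osm-11 (66.1 CPM in course B, 26.5 CPM in course A) and osm-7 (47.6 and 25.0 CPM in courses B and A), which encode secreted proteins rather than cilium parts. In course B they were followed by dyf-4 (19 CPM), che-10 (17.2 CPM) and xbx-6 (15.8 CPM). In course A they were followed by dyf-4 (19.4 CPM), xbx-6 (11.1 CPM) and ift-43 (9.94 CPM), with che-10 at 6.83 CPM. Among the 36 genes of the motors, IFT-B, IFT-A, the BBSome and the transition zone, levels per kilobase ran from 0.518 CPM for mks-3 to 7.31 CPM for ift-43 in course B, and from 0.608 to 9.94 CPM for the same 2 genes in course A. The 53rd gene, che-1, which encodes the zinc finger factor that sets the fate of the ASE taste neurons, stayed between 0.0314 and 0.126 CPM in course B and between 0 and 0.21 CPM in course A. It did not pass the filter on low counts, and the other 52 genes were tested in each course.

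Cilium gene levels went down with time in both courses. A straight line in time was fitted together with an 8 h cycle, the slope was expressed as the log2 change over 15 h, and a gene was said to fall or rise at an adjusted p under 0.05 and a change of at least 1 on that scale. In course B, 36 of the 52 genes fell, against 12.1% of all genes tested. In course A, 24 of the 52 fell, against 12.7% of all genes, and the same 24 fell in course B too (falls in both courses were 7.84% over all genes). The median change of the 52 genes was -1.31 in course B and -0.98 in course A, where the median over all genes was -0.06 and 0.04. The sign of the change was negative for 49 of 52 genes in course B and for 48 of 52 genes in course A. Without the minimum change, 41 genes passed in course B (23% of all genes) and 30 in course A (19.6% of all genes). In course B none of the 52 genes rose (16% of all genes did), and in course A only dyf-17 did (21.1% of all genes). For course B, the edgeR test gave 0 rises of at least 1 at an unadjusted p under 0.05 as well, 1 with no minimum change, and DESeq2 and limma each gave 0.

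**Figure D1:**
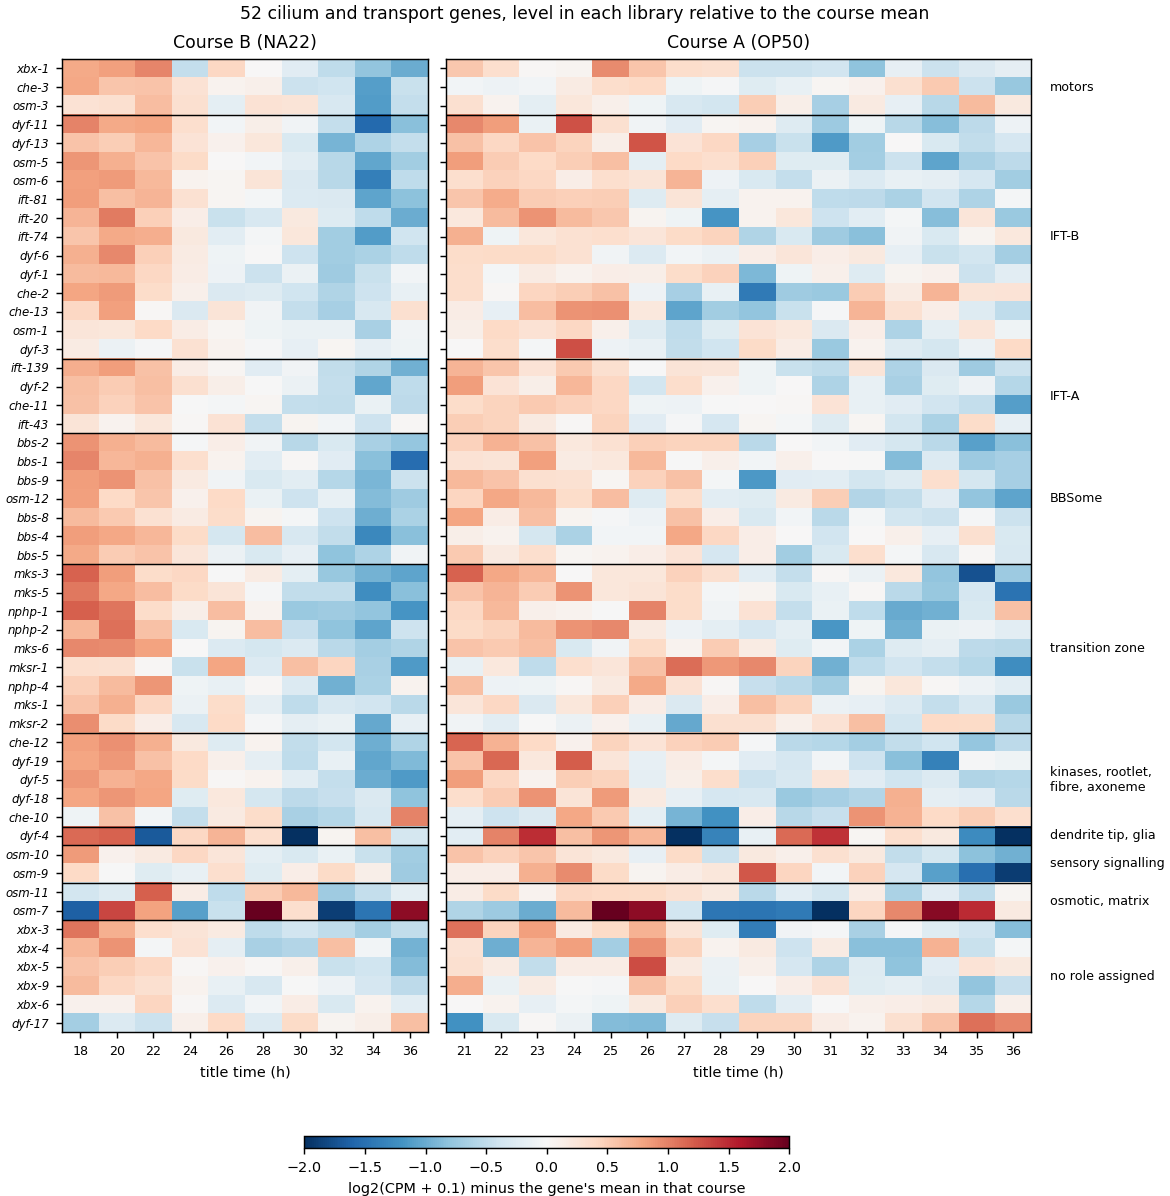
Level of 52 genes (rows, grouped by role) in each library (columns, by title time in hours), course B on the left and course A on the right. Colour gives log2(CPM + 0.1) minus the gene's mean in that course. Most rows run from red in the early libraries to blue in the late ones, more evenly in course B, while osm-7 and dyf-4 switch between red and blue within a course.

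The fall can also be seen without a curve. In course B, 17 of the 52 genes had all 5 libraries from 28 to 36 h below all 5 from 18 to 26 h, which held for 5.57% of all genes. In course A, 5 genes had all 8 libraries from 29 to 36 h below all 8 from 21 to 28 h, against 1.8% of all genes, and these were bbs-2, che-12, dyf-13, osm-6 and xbx-1. Among these 5, bbs-2 was also one of the 17 genes of course B.

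Some of the falls described below rest on the full set of libraries. When course A was reduced to its 8 shared times, the falls there of bbs-1, dyf-2, dyf-11, dyf-19, ift-139 and mks-3 lost the call (adjusted p from 0.0516 to 0.204), with changes from -1.84 to -0.82. When course B was reduced to the same 8 times, xbx-3 lost it (-1.23, adjusted p = 0.0591). Without the 2 latest libraries of course B, a choice made after seeing the data, xbx-1 (-1.37, adjusted p = 0.122) and dyf-13 (-1.41, adjusted p = 0.0636) lost the call there. Only the members described in full were followed one by one under these settings. Other members lost the call too, in course A with the shared times and in course B without its 2 latest libraries. The counts of falls left are in the closing section.

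The summed level of the 36 genes in the 5 core groups was 296 CPM at 18 h in course B, 192 CPM at 26 h, 108.5 CPM at 34 h and 140 CPM at 36 h. In course A the sum was 205.5 CPM at 21 h, 177 CPM at 26 h, 148 CPM at 34 h and 116.4 CPM at 36 h. The course B sum thus started higher and came down further, from an earlier first title time, and its lowest point was the library of 34 h. At 22 h, the first title time common to both, the sums were 273 CPM in course B and 189 CPM in course A. CPM is a share of a library's counts. In whole worms, fewer cells of a type, less RNA per cell and more RNA from other tissues therefore cannot be told apart.

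Of the 3 motor genes, all fell in course B, and xbx-1 alone fell in both courses. xbx-1, the light intermediate chain of dynein-2, had a lowest, median and highest level of 0.589, 1.17 and 2.58 CPM in course B and 0.732, 1.30 and 2.70 CPM in course A. In course B the 24 h library (0.885 CPM) lay among the late ones, while in course A every library after 28 h was below every earlier one. It fell by 1.72 ± 0.32 in course B (adjusted p = 0.00282, edgeR, ± standard error of the fit here and below) and by 1.44 ± 0.30 in course A (adjusted p = 0.000889). che-3, the dynein-2 heavy chain, ran from 14.1 to 51.5 CPM in course B, where it fell by 1.35 ± 0.18. In course A it stayed between 17.4 and 42.6 CPM, with its highest level at 34 h, and its change was -0.32 ± 0.20 (adjusted p = 0.223). osm-3, the kinesin-2 motor of the outer ciliary segment, fell by 1.03 ± 0.22 in course B and had a change of 0.05 ± 0.34 in course A (adjusted p = 0.911). The osm-3 exons share 5.99% of their length with the neighbouring gene algn-14 on the same strand, so that some reads could belong to either gene.

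IFT-B was the largest group, and 9 of its 13 genes fell in course B and 6 in both courses. dyf-11, an IFT-B subunit, had a lowest, median and highest level of 1.16, 3.68 and 7.28 CPM in course B and 0.930, 1.64 and 4.36 CPM in course A. It was highest at 18 h in course B and at 24 h in course A. It fell by 1.89 ± 0.23 in course B (adjusted p = 0.000246) and by 1.45 ± 0.41 in course A (adjusted p = 0.00731). dyf-13, another IFT-B subunit, stood at 0.601, 1.40 and 2.01 CPM in course B and at 0.511, 1.30 and 3.11 CPM in course A. Its course A libraries after 28 h were all below those up to 28 h. It fell by 1.33 ± 0.25 in course B (adjusted p = 0.00303) and by 1.90 ± 0.37 in course A (adjusted p = 0.000483).

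The other 4 IFT-B genes that fell in both courses were osm-5, osm-6, ift-74 and ift-81, which encode core subunits of the train. Their falls lay between 1.37 and 1.65 in course B and between 1.02 and 1.57 in course A. ift-20, dyf-6 and che-2 fell in course B only by the test, by 1.5 ± 0.31, 1.41 ± 0.15 and 1.14 ± 0.24, and had changes of -0.92, -0.46 and -0.26 in course A. Of the ift-20 exonic length 14.7% overlaps spe-5 on the opposite strand, and dyf-6 shares 6.61% with rme-4 on its own strand. dyf-1, che-13, osm-1 and dyf-3 did not reach the call in either course, with changes from -0.97 to -0.20 in course B and from -0.55 to -0.13 in course A. In course B dyf-1, che-13 and osm-1 passed the adjusted p (0.00855, 0.0363 and 0.00935, edgeR) and missed only the minimum change. osm-1, the largest IFT-B subunit, was not called although its 5 late libraries of course B (12.6 to 18.8 CPM) all lay below the 5 early ones (20.2 to 25.8 CPM).

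Of the 4 IFT-A genes, ift-139 and dyf-2 fell in both courses. ift-139 had a lowest, median and highest level of 3.85, 7.50 and 13.6 CPM in course B and 2.89, 5.27 and 7.77 CPM in course A. In course B its late libraries did not overlap its early ones, and in course A they did. It fell by 1.48 ± 0.16 in course B (adjusted p = 0.000102) and by 1.23 ± 0.27 in course A (adjusted p = 0.0013). dyf-2, which encodes a large repeat protein of the IFT-A core, had levels of 5.07, 10.9 and 16 CPM in course B and 4.4, 6.77 and 12.4 CPM in course A. It fell by 1.29 ± 0.17 in course B (adjusted p = 0.000348) and by 1.15 ± 0.27 in course A (adjusted p = 0.0024). che-11, another IFT-A core gene, passed the adjusted p in both courses with changes just short of 1, at -0.98 ± 0.17 in course B and -0.94 ± 0.21 in course A. ift-43, a small peripheral subunit, had changes of -0.36 ± 0.23 in course B and -0.49 ± 0.27 in course A (adjusted p = 0.233 and 0.138).

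All 7 BBSome genes fell in course B, and 5 of them fell in both courses. bbs-2 had a lowest, median and highest level of 2.36, 3.96 and 7.72 CPM in course B and 1.39, 3.32 and 5.0 CPM in course A. In both courses every late library was below every early one. It fell by 1.47 ± 0.19 in course B (adjusted p = 0.00028) and by 1.56 ± 0.30 in course A (adjusted p = 0.000598). bbs-1, another BBSome subunit, had levels of 0.624, 2.05 and 4.02 CPM in course B and 0.788, 1.58 and 2.77 CPM in course A. It fell by 1.86 ± 0.23 in course B (adjusted p = 0.000269) and by 1.17 ± 0.32 in course A (adjusted p = 0.00779). Without the 26 h library of course A the bbs-1 change there was -0.97, just short of the minimum.

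bbs-8, bbs-9 and osm-12, the worm gene for the BBS7 subunit, also fell in both courses, by 1.24 to 1.49 in course B and by 1.01 to 1.28 in course A. bbs-5 fell by 1.13 ± 0.26 in course B and had a change of -0.62 ± 0.29 in course A (adjusted p = 0.0845). bbs-4 parted most between the courses within this complex. In course B it was highest at 18 h (2.23 CPM) and lowest at 34 h (0.429 CPM), a fall of 1.81 ± 0.32, while in course A it ranged from 1.17 CPM at 24 h to 3.24 CPM at 27 h with a change of -0.15 ± 0.32 (adjusted p = 0.727).

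Of the 9 genes grouped here under the transition zone, which include the inversin gene nphp-2, 8 fell in course B and 5 in both courses. mks-3, a membrane receptor-like protein of the gate, had a lowest, median and highest level of 0.589, 1.42 and 3.14 CPM in course B and 0.408, 1.74 and 3.74 CPM in course A. The first library was the highest in both courses. It fell by 1.97 ± 0.24 in course B (adjusted p = 0.000231) and by 1.77 ± 0.43 in course A (adjusted p = 0.00314). mks-5, a scaffold on which the assembly of the transition zone rests, had levels of 1.72, 4.59 and 8.85 CPM in course B and 0.879, 2.69 and 4.98 CPM in course A. It fell by 1.84 ± 0.21 in course B (adjusted p = 0.000152) and by 1.65 ± 0.30 in course A (adjusted p = 0.000322).

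nphp-1, nphp-2 (the worm inversin) and mks-6 also fell in both courses, by 1.51 to 2.05 in course B and by 1.07 to 1.35 in course A. nphp-4 and mks-1 fell in course B, by 1.06 ± 0.22 and 1.16 ± 0.24, and had changes of -0.83 ± 0.22 and -0.64 ± 0.35 in course A. The 2 small B9 domain genes were the exceptions. mksr-1, at 0.277 to 1.32 CPM in course B and 0.264 to 1.77 CPM in course A, was called in neither course. mksr-2 fell by 1.06 ± 0.36 in course B (adjusted p = 0.0405) and had a change of 0.55 ± 0.40 in course A (adjusted p = 0.285), and it rested on 7 to 46 counts per library in course B and 16 to 57 in course A.

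Among the genes for kinases, rootlet, transition fibre and axoneme, 4 of 5 fell in both courses. che-12, which encodes a HEAT repeat protein of the axoneme, had a lowest, median and highest level of 5.97, 11.2 and 22.3 CPM in course B and 5.44, 9.62 and 21.1 CPM in course A. It fell by 1.54 ± 0.17 in course B (adjusted p = 0.000119) and by 1.85 ± 0.19 in course A (adjusted p = 6.67e-07). dyf-19, a transition fibre component, had levels of 1.42, 2.98 and 5.6 CPM in course B and 0.620, 1.67 and 4.12 CPM in course A. It fell by 1.66 ± 0.21 in course B (adjusted p = 0.000317) and by 1.35 ± 0.43 in course A (adjusted p = 0.0164). dyf-5 and dyf-18, both kinases that act on cilium length and IFT, fell by 1.80 and 1.58 in course B and by 1.14 and 1.27 in course A. The fifth gene, che-10, encodes rootletin, the protein of the fibre that anchors the cilium base. Its changes were 0.02 ± 0.23 in course B and 0.69 ± 0.40 in course A (adjusted p = 0.96 and 0.16).

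**Figure D2:**
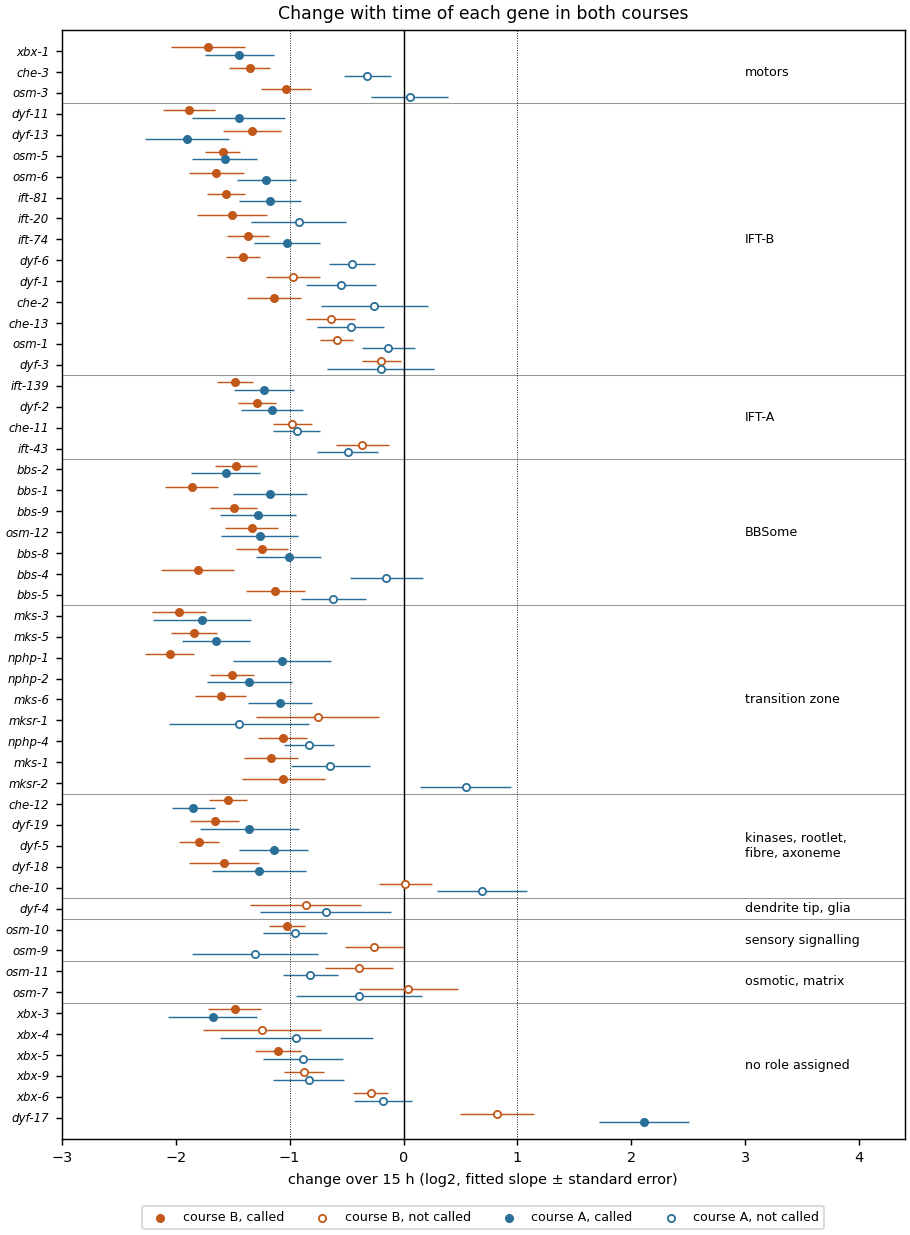
Fitted log2 change over 15 h of each of the 52 genes, with its standard error as a bar, for course B (orange, upper point of each pair) and course A (blue, lower point). Filled points passed both the adjusted p and the minimum change of 1, drawn as dotted lines. Most points lie left of 0, and dyf-17 is the only filled point on the right.

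Outside the structural groups the fall was patchy. osm-9, a TRPV channel of sensory cilia, had a lowest, median and highest level of 4.06, 7.0 and 8.94 CPM in course B and 1.01, 4.49 and 9.77 CPM in course A. Its last 3 libraries of course A were its lowest there. Its change was -0.26 ± 0.25 in course B (adjusted p = 0.444) and -1.31 ± 0.56 in course A (adjusted p = 0.09). In course A the osm-9 fall was called in 6 of 27 alternatives. osm-10, which the ASH neurons need to sense high osmolarity, fell by 1.02 ± 0.16 in course B, with a change of -0.95 ± 0.28 in course A. Neither dyf-4 nor the secreted osm-7 and osm-11 was called for a change with time in either course. The osm-11 change in course A, -0.82 ± 0.24, passed the adjusted p (0.00992, edgeR) but not the minimum.

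The 6 genes given no role hold 5 xbx genes, named for an X-box in their promoter, and dyf-17. xbx-3 had a lowest, median and highest level of 0.987, 1.56 and 3.55 CPM in course B and 0.783, 2.17 and 4.78 CPM in course A. It fell by 1.48 ± 0.24 in course B (adjusted p = 0.000914) and by 1.68 ± 0.39 in course A (adjusted p = 0.00177). xbx-5 fell by 1.10 ± 0.20 in course B and had a change of -0.88 ± 0.35 in course A. xbx-9 passed the adjusted p in both courses with changes short of 1, at -0.87 ± 0.18 in course B and -0.83 ± 0.31 in course A. Neither xbx-4 (-1.25 ± 0.52 in course B, -0.94 ± 0.68 in course A) nor xbx-6 (-0.29 ± 0.16 and -0.18 ± 0.26) was called in either course. dyf-17 went the other way: at 0.319, 0.898 and 1.97 CPM (lowest, median and highest) it rose by 2.11 ± 0.40 in course A (adjusted p = 0.00044, 8 to 58 counts per library), and at 0.502, 0.914 and 1.35 CPM its change in course B was 0.82 ± 0.32 (adjusted p = 0.0707).

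The difference between the 2 courses in the change with time was tested by an interaction term over all 26 libraries, with no minimum change. It was called for none of the 52 genes, and for 0.541% of all genes. At an unadjusted p under 0.05 edgeR gave 6 of the 52 genes (11.5%, against 13.2% of all genes), limma called 0 at the adjusted p, and DESeq2 called 2, bbs-4 and dyf-6. For bbs-4 the difference, course B minus course A, was -1.60 ± 0.42 (adjusted p = 0.0955), and for dyf-6 it was -0.90 ± 0.22 (adjusted p = 0.0731). edgeR called dyf-6 and che-3 without the 36 h library of course B, and dyf-6 without the 36 h library of course A. The larger number of falls in course B was therefore not matched by called differences between the courses for single genes.

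Cilium genes that the name rule leaves out went down as well. Of the other cilium genes in a list of 31, 21 of the 28 tested fell in course B, 15 of the 30 tested fell in course A and 15 fell in both, with medians of -1.25 in course B and -1.17 in course A. They included the cilium regulators daf-19 (-1.24 in course B, -1.73 in course A) and fkh-8 (-1.35 and -1.49), the IFT-A genes ifta-1 and ifta-2, and the kinesin-II subunit klp-11 (-1.25 and -1.35). ifta-2 fell by 1.88 ± 0.20 in course B and by 2.14 ± 0.39 in course A, and tmem-138, a transition zone membrane protein at 0.104 to 0.596 CPM in course B and 0.207 to 2.35 CPM in course A, fell by 1.22 ± 0.39 and 2.43 ± 0.64. The tmem-138 fall in course B was lost in DESeq2, in limma, with no low count filter and without any 1 of 7 libraries, and the fall in course A was lost with the 8 shared times. The other kinesin-II subunits, klp-20 and kap-1, had smaller changes (-0.70 and -0.85 in course B, 0.01 and -0.26 in course A).

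Of 16 ciliary sensory signalling genes, 9 fell in course B, 9 in course A and 7 in both. odr-3, a G protein of the olfactory cilia, fell by 1.31 ± 0.21 in course B and by 1.98 ± 0.24 in course A, and the channel subunit cng-3 fell by 1.47 ± 0.33 and 1.88 ± 0.62. The cng-3 call in course A was lost without the 21 h or the 26 h library, with linear time alone and with the 8 shared times, and both its calls were lost without the 2 latest libraries. The TRPV gene ocr-2, chosen after its values were seen, rose in course A by 1.03 ± 0.33 (adjusted p = 0.0149).

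Genes used across the nervous system also went down, by less in the median. Of 22 pan-neuronal genes, 11 fell in course B, 9 in course A and 9 in both, with median changes of -0.98 in course B and -0.80 in course A. Without the minimum change, 18 of the 22 fell in course B, 15 in course A and 14 in both. For the 52 cilium genes these counts were 41, 30 and 29, so that the pan-neuronal share was no smaller. Their summed level ran from 2128 CPM at 18 h to 1126 CPM at 36 h in course B and from 1531 CPM at 21 h to 885 CPM at 36 h in course A, and none of the 22 was at 0 in any library. unc-10, an active zone protein, fell by 1.46 ± 0.19 in course B and by 1.7 ± 0.17 in course A, and the synaptic vesicle gene sng-1 fell by 1.65 ± 0.12 and 1.37 ± 0.20. When library sizes were set by the summed counts of these 22 genes, a scaling chosen after seeing the data, the median change of all genes moved to 0.81 in course B and 0.76 in course A. The medians of the 52 cilium genes moved with it, to -0.44 in course B and -0.27 in course A, since such a scaling shifts all genes by about the same amount. On that scale 3 of the 52 cilium genes fell in course B (dyf-11, mks-3 and nphp-1), against 1.4% of all genes. In course A 2 fell (che-12 and dyf-13), against 3.86% of all genes, and 0 fell in both courses. Rises were called for 1 in course B (dyf-17) and 3 in course A (che-10, dyf-17 and mksr-2). Rises made up 96.3% of all called genes in course B and 90.7% in course A on that scale, against 56.9% and 62.4% with TMM.

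Germline RNA moved the opposite way. Of 9 germline markers, 8 rose in course B and 9 in course A, with medians of 3.06 in course B and 2.45 in course A, among them puf-5 (4.90 ± 0.71 and 4.88 ± 0.61) and the yolk receptor gene rme-2 (3.72 ± 0.51 and 3.68 ± 0.47). Their summed level ran from 334 CPM at 18 h to 1845 CPM at 36 h in course B and from 376 CPM at 21 h to 1520 CPM at 36 h in course A, with none at 0. All sperm markers that could be tested rose, 5 in course B and 7 in course A, among them spe-11 and msp-142, and their sum ranged from 0.0628 to 427 CPM in course B and from 0.239 to 320 CPM in course A. Of the 9 sperm markers, msp-19 was at 0 in every library and msp-10 in every library of course B. Of 9 intestinal and 7 body wall muscle markers none fell in either course (adjusted p and minimum change as above), with medians of -0.10 and -0.29 in course B and -0.16 and 0.02 in course A. The part of germline growth in the fall of cilium gene levels was not tested.

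**Figure D3:**
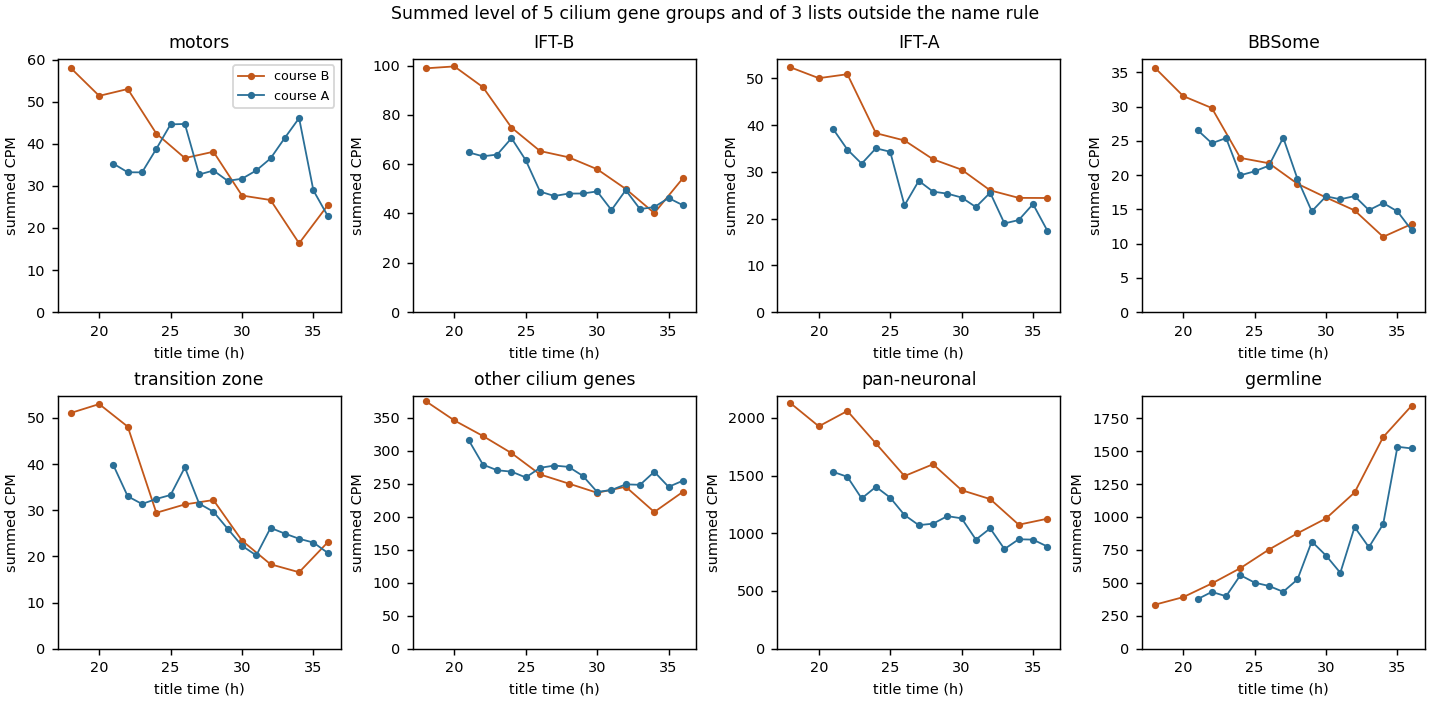
Summed CPM against title time in hours for 5 groups of cilium genes, for the other cilium genes outside the name rule, for 22 pan-neuronal genes and for 9 germline genes, with course B in orange and course A in blue. Each point is 1 library. The cilium and pan-neuronal sums come down over both courses, with exceptions in course A, and the germline sum goes up. The motor sum of course A reaches its highest value, 46.1 CPM, at 34 h. The course A sum of the other cilium genes is 316 CPM at 21 h and stays between 237 and 279 CPM from 22 h on.

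Few cilium genes cycled. A cycle was called where the 8 h cosine and sine passed an adjusted p of 0.05 together and the fitted peak-to-trough difference was at least 1 on the log2 scale. This held for 5 of the 52 genes in course B (21% of all genes), for 5 in course A (22.8%), and for 2 genes in both (16.5%), namely osm-7 and dyf-4. Neither of these 2 encodes a part of the cilium itself.

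osm-7 encodes a secreted protein that, like OSM-11, acts with the Notch pathway and holds back the osmotic stress response. In course B it stood at 160 CPM at 20 h, 293 CPM at 28 h and 219 CPM at 36 h, with lows of 29.7 CPM at 24 h and 17 CPM at 32 h. In course A it peaked at 145 CPM at 25 h and 126 CPM at 34 h, with a low of 6.85 CPM at 31 h. The peak-to-trough difference was 3.80 ± 0.47 in course B (adjusted p = 0.00359) and 3.29 ± 0.47 in course A (adjusted p = 0.000184), and within the cycle from 24 to 32 h the fitted peak was at 28.6 h in course B and at 25.8 h in course A. The call held without any single library, and it was lost in both courses when the period was set to 7 h and in course B when it was set to 9 h. osm-11 cycled in course B (1.36 ± 0.33, adjusted p = 0.0315) and had a difference of 0.30 ± 0.21 in course A (adjusted p = 0.483).

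dyf-4 is needed for the glial channel that houses the cilia of the amphid sense organs. In course B it dropped to 7.57 CPM at 22 h and 4.60 CPM at 30 h, and its other 8 libraries stood at 19.1 to 55.1 CPM. In course A it was highest at 23 h (65.7 CPM) and 31 h (64.2 CPM) and lowest at 27 h (5.77 CPM) and 36 h (3.38 CPM). The peak-to-trough difference was 2.52 ± 0.54 in course B (adjusted p = 0.049) and 2.55 ± 0.48 in course A (adjusted p = 0.00444), with fitted peaks at 26.2 h in course B and 31.6 h in course A, each recurring every 8 h. The course B call was lost without any 1 of the 8 libraries from 22 to 36 h (adjusted p from 0.0516 to 0.19), with total counts as the scaling (0.0588), with no low count filter (0.065), with quadratic time (0.0834) and with the period set to 7 h (0.191) or 9 h (0.405). The course A call was lost with the period set to 7 h (0.0775) and when course A was cut to its 8 shared times (0.516). dyf-4 shares 3.62% of its exonic length with a noncoding RNA gene on the opposite strand.

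Some markers of the tissues around the cilia cycled in the same libraries, and so did some intestinal ones. Of 7 markers of amphid sheath and socket glia, 4 cycled in both courses (daf-6, ptr-10, grl-2 and clh-1), and their summed level ranged from 186 to 544 CPM in course B and from 131 to 380 CPM in course A. Of 8 skin markers, 6 cycled in both courses, and their sum ranged from 971 to 6559 CPM in course B and from 190.5 to 4733 CPM in course A. Cycles in both courses were called for 3 of 9 intestinal markers, 0 of 7 body wall muscle markers and 0 of 22 pan-neuronal genes. Over all genes the share was 16.5%. No glial or skin marker was at 0 in any library. With time, vap-1 was the 1 glial marker that fell in both courses (1.06 ± 0.13 in course B, 1.16 ± 0.18 in course A), although the course B call was lost without the 18, 34 or 36 h library, with size factors, in DESeq2 and with the 8 shared times. The skin collagens dpy-10 and dpy-7 fell in both as well, a call that in course B was lost without any 1 of 6 and of 7 libraries. Their part in the osm-7 and dyf-4 cycles was not tested.

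The other called cycles were smaller and were called in 1 course each. In course B these were che-10 (1.28 ± 0.26, adjusted p = 0.0164) and nphp-2 (1.09 ± 0.21, adjusted p = 0.0134), besides osm-11. In course A they were che-13, an IFT-B subunit (1.33 ± 0.23, adjusted p = 0.00101), dyf-13 (1.07 ± 0.32, adjusted p = 0.0448) and xbx-5 (1.01 ± 0.30, adjusted p = 0.0434). In course B the che-13 difference was 0.99 ± 0.24 at an adjusted p of 0.0361, just under the minimum. dyf-13 and xbx-5 each had 1 library of course A that stood out, that of 26 h, at 3.11 CPM for dyf-13 and 9.13 CPM for xbx-5. dyf-13 shares 1.08% of its exonic length with the collagen gene col-36 on the same strand. No member of the motors, IFT-A or the BBSome cycled in either course at these thresholds.

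**Figure D4:**
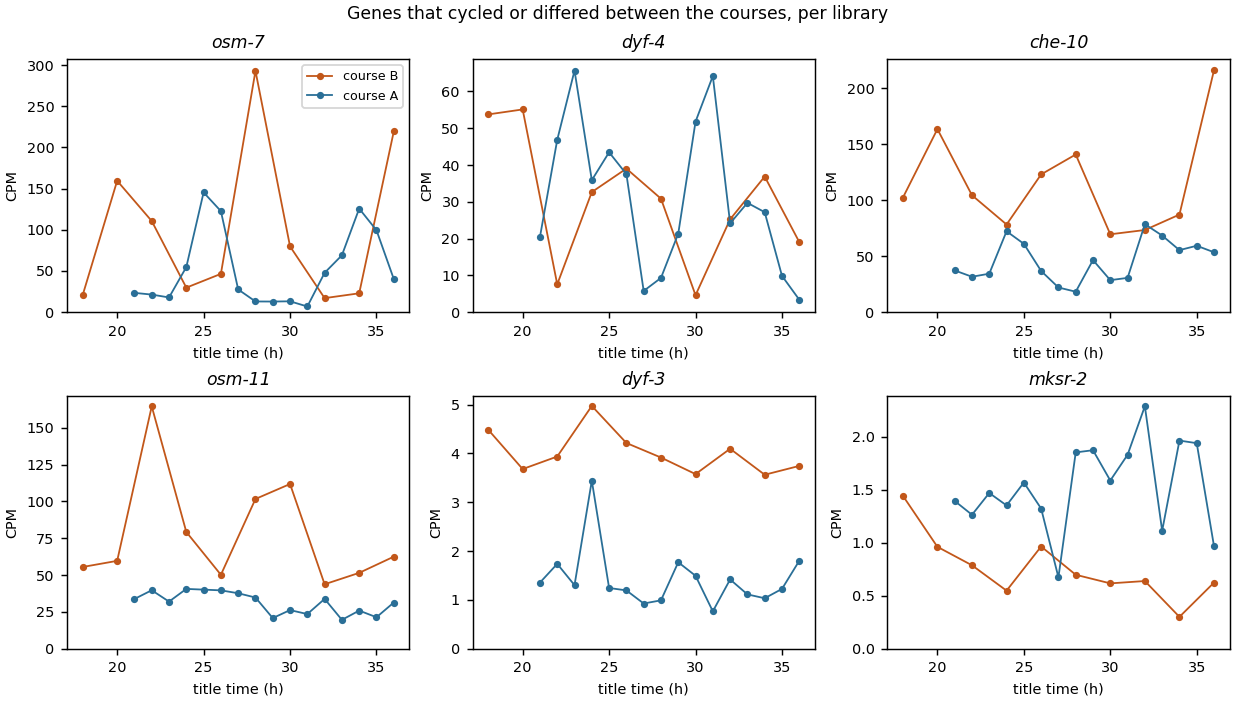
CPM against title time in hours for the genes that cycled in both courses (osm-7, dyf-4) or differed between the courses (che-10, osm-11, dyf-3, mksr-2), with 1 point per library, course B in orange and course A in blue. osm-7 and dyf-4 rise and dip in both courses at different times, dyf-3 lies higher in course B at every shared time, and mksr-2 lies lower.

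To set course B against course A, the 8 title times common to both, 22 to 36 h, were paired by time in the model. Equal titles need not mark equal stages of growth. At 30 h the summed sperm markers stood at 14.9 CPM in course B and 58.1 CPM in course A, and at 36 h at 427 and 315 CPM. Of the 52 genes, 3 were higher in course B (1.79% of all genes were) and 1 was lower (7.74%). The median difference of the 52 genes, course B minus course A, was 0.04 on the log2 scale, and that of all genes was -0.13. The higher calls made up 18.8% of all genes called with TMM, 20.2% with DESeq2's size factors and 6.13% with total counts, under which the median of all genes was -0.38.

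dyf-3, a subunit of IFT-B, ranged from 3.56 to 4.97 CPM in course B at the shared times and from 0.991 to 3.44 CPM in course A. It was higher in course B at 8 of 8 times, and the ranges did not overlap. The difference was 1.35 ± 0.19 (adjusted p = 0.00162). In course A the 24 h library (3.44 CPM) stood apart, and all others, the odd hours included, lay between 0.766 and 1.80 CPM. che-10 ranged from 69.6 to 216.4 CPM in course B and from 18.3 to 78.7 CPM in course A, and was higher in course B at 7 of 8 times. Its difference was 1.26 ± 0.31 (adjusted p = 0.0223), a call that was lost without either library of 22, 26, 30 or 36 h (adjusted p from 0.0507 to 0.0574), and it was 0.94 when scaled to pan-neuronal counts. osm-11 ranged from 43.8 to 165 CPM in course B and from 25.9 to 40.6 CPM in course A, and was higher in course B at 8 of 8 times with no overlap. Its difference was 1.13 ± 0.22 (adjusted p = 0.00739), and it was 0.99 without the 30 h library of course A, 0.88 with total counts and 0.81 when scaled to pan-neuronal counts.

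At the shared times mksr-2 ranged from 0.30 to 0.964 CPM in course B and from 0.966 to 2.29 CPM in course A. It was lower in course B at 8 of 8 times, with ranges that only just stayed apart. With the other libraries included the courses overlapped, at 0.673 CPM in course A at 27 h and 1.44 CPM in course B at 18 h. The mksr-2 difference was -1.31 ± 0.26 (adjusted p = 0.0072). In limma on the deposited log2 values it was -0.82, short of the minimum of 1. The skin markers had a median difference of 1.05, with 0 of 8 called (edgeR, adjusted), the pan-neuronal genes one of 0.19, with 1 of 22 called higher, and the muscle markers one of 0.68, with 1 of 7 called higher. The part of other tissues in these differences was not tested.

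Since the fitted osm-7 and dyf-4 peaks came at different title times in the 2 courses, the comparison was repeated with each library of course B set against that of course A titled 3 h earlier, an offset taken from earlier results of these data, which left 7 pairs. Then 4 of the 52 genes were higher in course B (4.86% of all genes) and 3 were lower (8.06%). dyf-3, che-10 and osm-11 were again higher, by 1.7 ± 0.17, 1.33 ± 0.14 and 1.20 ± 0.12, each in 7 of 7 pairs, and mksr-2 was again lower, at -1.20 ± 0.28 (adjusted p = 0.00535), in 7 of 7 pairs. osm-7 joined them at 1.12 ± 0.19 (adjusted p = 0.00103), higher in course B in 7 of 7 pairs, where at equal titles it had been higher in 4 of 8 at 0.63 ± 0.76 (adjusted p = 0.686). Because the offset follows the osm-7 cycle in these same data, its adjusted p and its 7 of 7 pairs are not an independent test. bbs-4 was lower in course B at -1.06 ± 0.27 (adjusted p = 0.00835) and mks-3 at -1.04 ± 0.19 (adjusted p = 0.00153), against -0.80 and -0.46 at equal titles. A gene that falls in course A is set here against an earlier library of that course, which by itself lowers its difference. mks-3 fell in both courses, while bbs-4 had a change of -0.15 ± 0.32 in course A (adjusted p = 0.727). The part of this shift in the 2 lower calls was not tested.

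**Figure D5:**
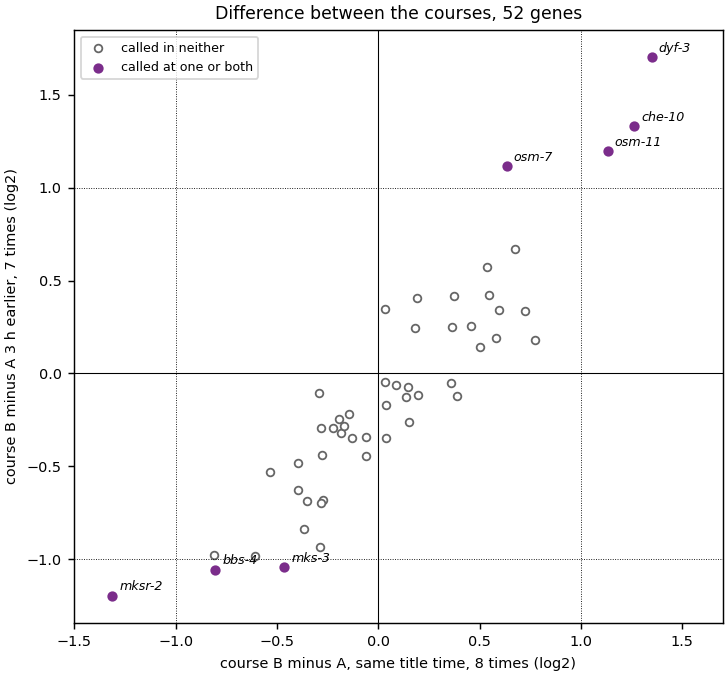
Difference between the courses in each of 52 genes on the log2 scale, course B minus course A, at the same title times (horizontal axis, 8 times) and with course A taken 3 h earlier (vertical axis, 7 times). Purple points passed the test in at least one of the 2 comparisons, and dotted lines mark the minimum of 1. dyf-3, che-10 and osm-11 lie beyond 1 and mksr-2 beyond -1 on both axes, and most other genes lie between.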

How the data were processed

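The authors' deposited table of raw counts per gene was used, 1 column per library, with 0 columns that matched no sample. The authors' deposited log2 values match, to within 5e-05, log2 of a sum of 8 and the count rescaled so that each library has its own course's mean total, which is larger in course B. Per the labels' protocols, Tri-Reagent was used to extract RNA and ScriptSeq v2 to build libraries. Of the upstream steps, the aligner, counter, strand setting, build and annotation were not given in the sources used here, so reads of overlapping or antisense genes cannot be told apart, and no coordinates are printed. Names were found for 18778 of the identifiers. Exonic lengths and overlaps come from the Ensembl annotation and served only for levels per kilobase and for naming shared exons.

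Counts were fitted over the whole table with edgeR 4.0.16 (quasi-likelihood F test, robust, TMM, R 4.3.3), each course apart, keeping genes whose level matched 10 or more counts in a library of median size, in 3 or more libraries. Adjusted p-values are Benjamini-Hochberg values over all genes tested. Alternatives were DESeq2 1.42.0, limma 3.58.1 on the log2 values, and the settings named in the closing section. The fits were tested on simulated data.

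The genes and lists were chosen with earlier results of these data known. In each role group the 2 genes with the largest mean change among those called in both courses (with none called, the most abundant gene) were described in full, with every gene called for a cycle in both courses or for a difference between the courses, and from each outside list the 2 with the largest mean change among those called in both. Other members were named to account for all of them, and daf-19, fkh-8, ifta-1 and the kinesin-II genes were named after their values were seen. The labels give no replicate numbers or batches.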

Additional observations from a re-analysis of the deposited data

How the results depend on the processing

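Among 64 values of named genes under 1534 alternatives, 1401 kept their side of the threshold, 127 lost a call, 6 gained one and no called value changed sign. The 6 gained calls were all falls of osm-9 in course A. Uncalled changes with time did change sign: osm-7 ranged from -1.04 to 0.91 in course B and from -1.23 to 0.77 in course A, dyf-4 reached 0.02 in course A and osm-9 reached 0.61 in course B. With size factors, total counts, DESeq2, limma, no low count filter, no robust estimation, quadratic time, linear time alone and no minimum change, 32 to 41 genes fell in course B, 22 to 30 in course A and 21 to 29 in both, and with single libraries left out 31 to 36, 21 to 28 and 21 to 27. Without the 2 latest libraries of a course, an alternative chosen after seeing the data, 26 fell in course B and 26 in course A. Scaled to pan-neuronal counts, also chosen after seeing the data, 3 fell in course B (against 1.4% of all genes) and 1 rose. In course A 2 fell (against 3.86% of all genes) and 3 rose, and 0 fell in both. On that scale 1 gene was higher and 3 were lower in course B. With the 8 shared times alone, a smaller set of libraries, 9 fell and 0 rose in course A, 8 fell in both, and 1 cycled in course A and in both. The share of all genes that fell with these fewer libraries was not counted, and the part of lost power in the drop was not tested.

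Cycles in both courses numbered 1 with total counts, 1 with no low count filter, 0 at 7 h, 0 at 9 h and 4 with no minimum difference, and 1 to 3 with single libraries left out. In course B cycles numbered 3 with quadratic time and 0 at 7 h and at 9 h (3 to 5 with libraries left out). In course A they numbered 3 with limma, 3 with no low count filter, 8 with quadratic time, 1 at 7 h and 10 with no minimum (3 to 5 with libraries left out). Genes lower in course B numbered 3 with total counts, 0 with limma, 4 with no minimum and 3 with course A taken 3 h earlier. Genes higher in course B numbered 8 with no minimum, and 1 to 3 with libraries left out, 1 without the 30 h library of course A. Changes that differed between the courses numbered 2 with DESeq2 and 0 to 2 with libraries left out. The limma values of the course comparison carry the different scaling of the deposited log2 values in each course. The cause of the other shifts was not tested. At this depth che-1 could not be tested. The planned X-box search was not run. No analysis paired by replicate number was possible because the labels carry none, and the courses were paired by time instead.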
